A study of Mus musculus with 9 samples.

Results

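Hyaluronan is a long sugar polymer of the extracellular matrix, and 7 genes that make, cut or modify it were followed in epicardium-derived cardiosphere-derived cells. They were chosen by name among the 54532 genes of the deposited table, and all 7 were found there: Has1, Has2, Has3, Hyal1, Hyal2, Cemip and Tnfaip6. RNA sequencing gave 9 libraries in 3 groups of 3. pECDCs are primary C57BL/6 mouse cells, grown by the study's methods as cardiospheres from the epicardium of 6-week-old mice and labelled P0. The methods, however, give passage 3 for the primary cells used in experiments. iECDCs are such cells at passage 30 after immortalization with a lentivirus carrying human TERT under the CMV promoter and puromycin selection. Between iECDCs and pECDCs, the transgene, the selection and the time in culture cannot be told apart. The third group is labelled as immortalized cells at passage 30 given SB431542, which blocks the kinase of the type I TGF-β receptor, for 3 days. For this group the study's methods name an epithelial clone derived from pECDCs instead, so the comparisons below are between libraries as labelled. The study's discussion also reports epithelial clones at a later time after SB431542 treatment than the 3 days of the labels. The labels do not say whether the 3 libraries of a group came from separate cultures or animals, and p-values then measure only the spread between these libraries, which may be technical. The human transgene was not analysed here.

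Hyaluronan is polymerized at the plasma membrane by the synthases Has1, Has2 and Has3 from UDP-glucuronic acid and UDP-N-acetylglucosamine, and the chain is extruded as it grows. Hyaluronidases such as Hyal1 and Hyal2 and the hyaluronan-binding protein Cemip bring about its breakdown, while Tnfaip6 (TSG-6) transfers heavy chains of inter-alpha-inhibitor onto it. In the developing heart, hyaluronan made by Has2 is needed for cardiac jelly and for the epithelial-to-mesenchymal transition of the cushions.

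Total counts ranged from 16568306 to 23951392 per library. Between libraries of 1 group, chi-square divided by its degrees of freedom, about 1 for sampling noise alone, was 2.70 to 4.23 among pECDCs and 4.61 and 3.79 for the closest pairs of iECDCs and SB431542-treated libraries. It was 24.9 and 30.8 for iECDC replicate 3 against the others and 70.3 and 71.6 for SB431542-treated replicate 2, so these 2 libraries stood apart, and results that rest on them are given with and without them. Cdkn2a, a cell cycle inhibitor often lost in immortal cells, had 407 to 562 counts in pECDCs, 0 or 1 in iECDCs and 0 in every SB431542-treated library. Ctgf, a TGF-β target, had FPKM (reads per length of the gene, scaled to the library) of 27.4, 70.9 and 30.7 in SB431542-treated replicates 1, 2 and 3, against 431 to 459 in iECDCs. Of 8 mesenchymal markers, 7 had an FPKM of at least 1 in all pECDC and iECDC libraries and 8 in the SB431542-treated ones. The epithelial markers Epcam, Cdh1, Krt8 and Krt18 and 5 endothelial markers were under 1 in every library. Of 5 haematopoietic markers, 2 had an FPKM of at least 1 in every library of each group, among them Csf1r at 3.46 to 7.41. Ptprc and Adgre1 were under 1 throughout. Of 6 cardiomyocyte markers, only Tnnt2 reached 1 in every library of a group, at 1.12 to 1.67 in iECDCs. Of 8 epicardial and mesothelial markers, 3, 3 and 4 had an FPKM of at least 1 in every library of the pECDC, iECDC and SB431542-treated groups. Tbx18, at 18.8 to 41.8, and Krt19, at 18.2 to 37.9, did so in all 9 libraries. Upk3b, at 1.16 to 1.36, and Tcf21, at 1.34 to 1.58, did so in the SB431542-treated libraries only, and Wt1 and Msln in none. Aldh1a2 went the other way, passing in every pECDC and iECDC library and in no SB431542-treated one. Its mean FPKM was 5.496 in pECDCs, 2.815 in iECDCs and 0.4287 in SB431542-treated libraries. Upk1b reached 1 in SB431542-treated replicate 2 alone, at 1.55. The 5 smooth muscle markers summed to 721 to 744 FPKM in pECDCs, 817 to 1922 in iECDCs and 139 to 331 in SB431542-treated libraries, of which 3, 3 and 2 had an FPKM of at least 1 in every library of the group. Acta2, the main one, had an FPKM of 1898 in iECDC replicate 3, against 812 and 848 in the other iECDC libraries, and 322 in SB431542-treated replicate 2, against 137 in both others. The part of these differences in the results below was not tested.

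For the members whose level differed between groups, the bases before the gene are shown for those in the promoter table of RefSeq (GRCm38.p6), which matched 5 of the 7 members. Has2 and Has3 had no entry. In the 250 bases before the RefSeq start, 4 motifs were searched on both strands. That of the factor AP-1 was spelled TGANTCA, and the cyclic AMP response element (CRE) was spelled TGACGTCA. The TATA box, where transcription starts are set, was spelled TATAAA, and a site that SMAD proteins of the TGF-β pathway can bind was spelled CAGAC. Matches are in capitals, and bases inside the gene of the deposited table are left out, on the strand of the gene, 5′ to 3′. The matches are a description of these letters, not of binding.
Has1 (chr17:17855206-17855438, minus strand): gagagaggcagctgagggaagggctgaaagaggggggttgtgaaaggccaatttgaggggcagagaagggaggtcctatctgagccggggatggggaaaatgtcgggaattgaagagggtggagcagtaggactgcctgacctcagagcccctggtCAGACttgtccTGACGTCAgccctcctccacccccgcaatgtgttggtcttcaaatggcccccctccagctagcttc
Cemip (chr7:84086506-84086755, minus strand): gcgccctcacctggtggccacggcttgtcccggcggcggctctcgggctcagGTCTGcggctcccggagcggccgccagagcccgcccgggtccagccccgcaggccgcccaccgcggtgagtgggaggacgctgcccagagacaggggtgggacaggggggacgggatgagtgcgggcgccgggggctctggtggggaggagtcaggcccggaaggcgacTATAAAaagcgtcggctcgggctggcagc
Tnfaip6 (chr2:52037863-52038008, plus strand): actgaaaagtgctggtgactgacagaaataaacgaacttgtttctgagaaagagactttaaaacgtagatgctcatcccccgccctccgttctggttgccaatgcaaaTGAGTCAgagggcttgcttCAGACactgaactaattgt
Has1 held the CRE letters from -83 to -76 of the RefSeq start, found in 1.55% of all 32851 promoters of this length. Cemip held a TATA box from -29 to -24, found in 12.4% of promoters. Tnfaip6 held the AP-1 letters from -142 to -136, found in 6.75%. The SMAD-binding letters occurred in all 3, on the other strand in Cemip, and in 42.2% of all promoters, so that they set none of them apart.

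Has2, the main synthase of mesenchymal cells, was by far the most abundant of the synthases, and it was lower in the SB431542-treated libraries. The gene lies on chromosome 15 (56665627 to 56694539, minus strand, GRCm38). Its FPKM was 52.0, 50.9 and 51.5 in pECDC replicates 1, 2 and 3. It was 62.0, 62.4 and 37.4 in iECDC replicates 1, 2 and 3. In SB431542-treated replicates 1, 2 and 3 it was 15.1, 7.96 and 17.6. All SB431542-treated libraries lay below every other library, whereas the iECDC libraries lay on both sides of the pECDC libraries, with replicate 3 as the low one. SB431542-treated replicate 2, where Ctgf was highest of the group, had the lowest Has2. The means were 51.5 ± 0.530 (SD, n = 3), 53.9 ± 14.3 (SD, n = 3) and 13.6 ± 5.02 (SD, n = 3) FPKM. Has2 was 3.94-fold lower in SB431542-treated than in iECDC libraries, a fall by 1.98 on the log2 scale (SE 0.313, adjusted p = 0.00395, edgeR). Without both libraries that stood apart it fell by 1.92 on the log2 scale (adjusted p = 1.66e-20, edgeR). Those libraries were left out because they deviated, which narrows the spread by choice. The spread between libraries in the fit (biological coefficient of variation) fell from 0.171 to 0.0541. The p-values of fits without them, here and below, thus understate the spread of the full groups and add no support. In bulk libraries, fewer cells with the transcript and less transcript per cell cannot be told apart. Between iECDCs and pECDCs the log2 fold change was 0.05 (SE 0.167, adjusted p = 0.854, edgeR), and without iECDC replicate 3 it was 0.26 (adjusted p = 9.13e-05, edgeR). The order of the levels was thus SB431542-treated lowest, with pECDCs and iECDCs not separated beyond their spread.

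**Figure D1:**
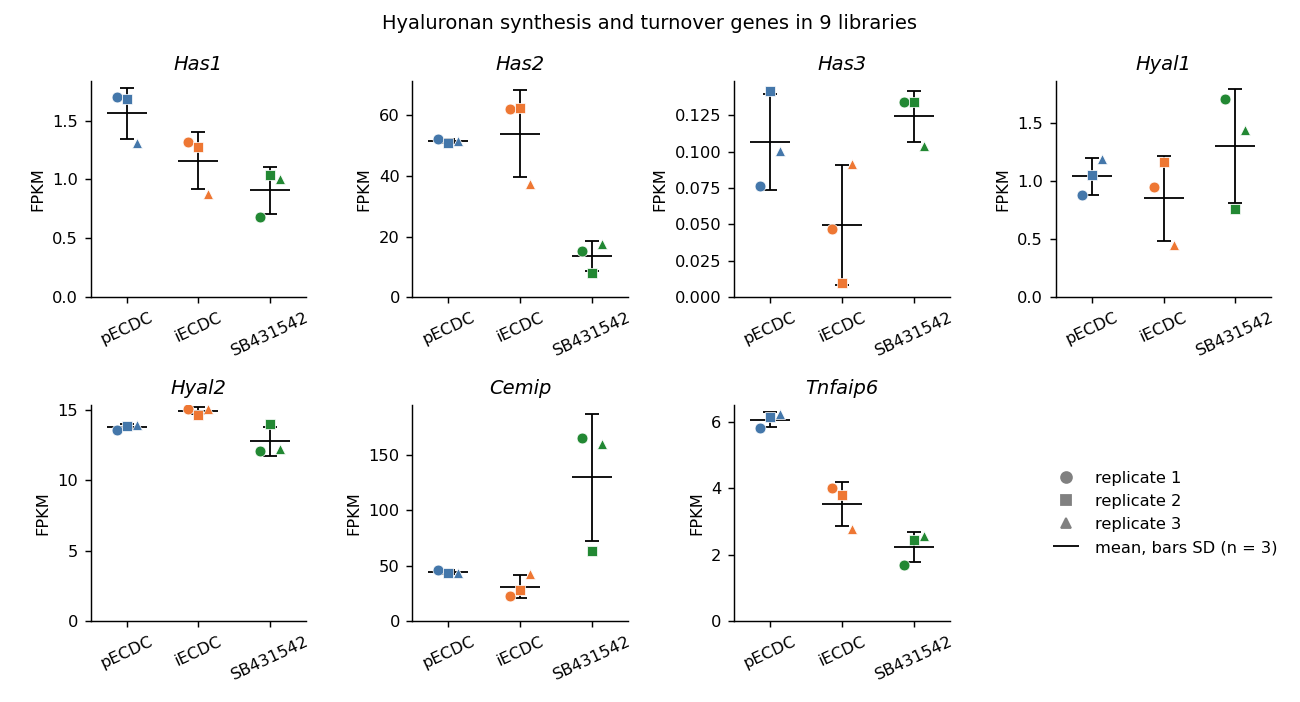
FPKM (y axis, linear, from 0) of the 7 genes in each library by group (x axis), with a marker shape per replicate, the mean as a line and bars of 1 SD (n = 3). Has2 sits between 7.96 and 17.6 in SB431542-treated libraries and Cemip between 63.3 and 165, outside the range of the other groups.

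The other synthases were low. Has1 (chromosome 17, 17843323 to 17855205, minus strand), a synthase induced by cytokines in fibroblasts, had an FPKM of 1.70, 1.68 and 1.31 in pECDC replicates 1, 2 and 3. The values were 1.32, 1.28 and 0.879 in the iECDC and 0.682, 1.04 and 1.004 in the SB431542-treated replicates 1, 2 and 3, from 54 to 188 counts per library. The lowest pECDC library and the highest iECDC library met at 1.31 and 1.32, and the iECDC and SB431542-treated ranges overlapped. Has1 did not pass the test between iECDCs and pECDCs (log2 fold change -0.43, SE 0.183, adjusted p = 0.141, edgeR) or between SB431542-treated and iECDC libraries (-0.34, SE 0.250, adjusted p = 0.329, edgeR). It passed in the latter comparison without the 2 libraries that stood apart, where it fell by 0.61 on the log2 scale (adjusted p = 0.0115, edgeR).

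Has3 (chromosome 8, 106870242 to 106884566, plus strand), the third synthase, was close to the limit of detection, with 12 to 18 counts in pECDC, 6, 1 and 9 in iECDC and 12 to 18 in SB431542-treated libraries, and no FPKM above 0.142. It lies partly over Chtf8 on the opposite strand, with 704 bases in common, and Chtf8 had 2119 to 3263 counts, so that reads of that gene could be part of these counts if strand was not used. The iECDC libraries were below every SB431542-treated library but overlapped the pECDC ones. Its log2 fold changes were -1.11 (SE 0.547, adjusted p = 0.201, edgeR) in iECDCs against pECDCs and 1.35 (SE 0.556, adjusted p = 0.0990, edgeR) in SB431542-treated against iECDC libraries. Without iECDC replicate 3 the first passed (-1.79, adjusted p = 0.0319, edgeR), a call that rests on the 6 counts and 1 count of the remaining iECDC libraries.

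Has2 made up 96.5% to 97.3% of the summed FPKM of the 3 synthases in pECDCs, 97.5% to 98.0% in iECDCs and 87.1% to 94.9% in SB431542-treated libraries. The summed FPKM itself was 52.8 to 53.8 in pECDCs, 38.4 to 63.6 in iECDCs and 9.13 to 18.8 in SB431542-treated libraries. The lowest share, 87.1%, was in SB431542-treated replicate 2, where Has2 was lowest and Has1 was highest of its group.

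Cemip, a hyaluronan-binding protein needed for hyaluronan breakdown by skin fibroblasts, moved the other way from Has2 in the SB431542-treated libraries. The gene lies on chromosome 7 (83932857 to 84086502, minus strand). Its FPKM was 46.3, 42.8 and 42.9 in pECDC replicates 1, 2 and 3. It was 22.9, 27.9 and 42.5 in iECDC replicates 1, 2 and 3, and 165, 63.3 and 160 in SB431542-treated replicates 1, 2 and 3. Every SB431542-treated library was above all others, with replicate 2 well below its group, and iECDC replicate 3 lay next to the pECDC libraries while the other iECDC libraries were lower. The means were 44.0 ± 1.98, 31.1 ± 10.2 and 129 ± 57.3 FPKM in the order given (SD, n = 3 each). Cemip was 4.21-fold higher in SB431542-treated than in iECDC libraries (log2 fold change 2.07, SE 0.381, adjusted p = 0.00703, edgeR) and by 2.69 on the log2 scale without both libraries that stood apart (adjusted p = 2.02e-25, edgeR). Has2 and Cemip kept these calls under all 16 alternative settings tried. In iECDCs against pECDCs the log2 fold change was -0.52 (SE 0.186, adjusted p = 0.0924, edgeR). Without iECDC replicate 3 Cemip fell by 0.80 on the log2 scale (adjusted p = 2.05e-07, edgeR). With this library it also passed under DESeq2 (adjusted p = 0.0371) and in edgeR without the filter on low counts (adjusted p = 3.55e-07). In that unfiltered fit each gene's own spread counted for little, with 148 prior degrees of freedom against 5.03 with the filter. The low p-value thus takes little account of the spread between the iECDC libraries.

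The ratio of Cemip to Has2 FPKM was 0.832 to 0.890 in pECDCs. It was 0.369 and 0.447 in iECDC replicates 1 and 2 and 1.13 in replicate 3, and 7.96 to 10.9 in SB431542-treated libraries. SB431542-treated replicate 2, with the lowest value of its group for both genes, still had a ratio of 7.96. By rank of mean FPKM among all genes, Cemip stood at 1229 in pECDCs, 1901 in iECDCs and 334 in SB431542-treated cells, and Has2 at 1037, 1048 and 3823.

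**Figure D2:**
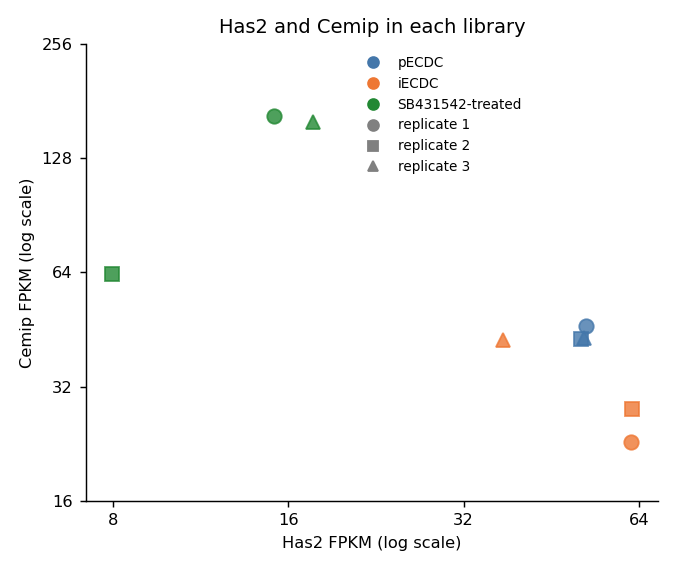
Has2 FPKM (x axis, log scale) against Cemip FPKM (y axis, log scale), a point per library, coloured by group and shaped by replicate. The 3 SB431542-treated libraries lie at the upper left, with a ratio of Cemip to Has2 of 7.96 to 10.9, and iECDC replicate 3 lies between the other iECDC libraries and the pECDC libraries on the Cemip axis.

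The hyaluronidases differed little. Hyal2, a hyaluronidase anchored at the cell surface that cuts long chains, had an FPKM of 13.6, 13.9 and 13.9 in pECDC replicates 1, 2 and 3. The values were 15.1, 14.6 and 15.1 in the iECDC and 12.1, 13.96 and 12.2 in the SB431542-treated replicates 1, 2 and 3. The iECDC libraries were above all others by a small margin, and SB431542-treated replicate 2 was the high one of its group. The log2 fold change was 0.10 (SE 0.0603, adjusted p = 0.285, edgeR) in iECDCs against pECDCs and -0.22 (SE 0.1001, adjusted p = 0.133, edgeR) in SB431542-treated against iECDC libraries. Without SB431542-treated replicate 2 the latter passed (-0.29, adjusted p = 0.0204, edgeR).

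Hyal1, the lysosomal hyaluronidase, lies 4147 bases downstream of Hyal2 on chromosome 9 (107576927 to 107581710, against 107567945 to 107572779 for Hyal2, both on the plus strand). Its FPKM was 0.874, 1.05 and 1.19 in pECDC, 0.944, 1.16 and 0.448 in iECDC and 1.71, 0.755 and 1.44 in SB431542-treated replicates 1, 2 and 3. All groups overlapped, with iECDC replicate 3 and SB431542-treated replicate 2 as the lowest libraries. It passed in neither comparison with iECDCs (log2 fold change -0.29, SE 0.290, adjusted p = 0.539 against pECDCs, and 0.61, SE 0.402, adjusted p = 0.277 for SB431542-treated libraries, edgeR). Without SB431542-treated replicate 2 it rose by 0.88 against iECDCs (adjusted p = 0.0466, edgeR). The gene shares 2824 bases with Nat6 on the same strand, with 97 to 234 counts, so that its 26 to 113 counts are uncertain.

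Tnfaip6, which links heavy chains to hyaluronan and is induced by inflammatory cytokines, fell in iECDCs. The gene lies on chromosome 2 (52038009 to 52056686, plus strand). Its FPKM was 5.82, 6.17 and 6.24 in pECDC, 4.03, 3.81 and 2.78 in iECDC and 1.70, 2.45 and 2.56 in SB431542-treated replicates 1, 2 and 3. The 3 groups did not overlap, in the order pECDC, iECDC and SB431542-treated from high to low. The means were 6.07 ± 0.224, 3.54 ± 0.667 and 2.23 ± 0.466 FPKM (SD, n = 3 each). Tnfaip6 was 1.72-fold lower in iECDCs than in pECDCs, a fall by 0.78 on the log2 scale (SE 0.147, adjusted p = 0.00761, edgeR), and it kept the call under all 15 alternative settings tried. The further difference in SB431542-treated against iECDC libraries did not pass (log2 fold change -0.65, SE 0.239, adjusted p = 0.0710, edgeR), but did without both libraries that stood apart (-0.87, adjusted p = 0.000475, edgeR).

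By count, 1 of the 7 genes passed between iECDCs and pECDCs, where 16.4% of the 13752 tested genes did, so that the share of the 7 is near the background. Between SB431542-treated and iECDC libraries 2 of 7 passed, again near the 30% of 13559 tested genes. Without iECDC replicate 3 and SB431542-treated replicate 2, all 7 passed in the latter comparison, but so did 8951 of 13867 tested genes. The libraries of the groups did not overlap, on normalized counts, for 3 and 5 of the 7 genes in these comparisons, against 39.6% and 46.5% of all tested genes. The median log2 fold change of the 7 was -0.43 and -0.22, against -0.0018 and 0.0014 over all tested genes. With a log2 fold change of at least 1 also required, 0 and 2 of the 7 passed, against 3.72% and 10.6% of all tested genes.

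By the labels, SB431542-treated and pECDC libraries differ by treatment, immortalization, selection and passage, which cannot be told apart. This comparison also shares libraries with both others. Of the 7 genes 4 passed, with 34.8% of 14015 tested genes called, and 3 passed with a log2 fold change of at least 1, against 9.49%. Their libraries did not overlap for 4 of the 7, against 51.5% of tested genes. Has2 fell by 1.91 (SE 0.268, adjusted p = 0.00262, edgeR), Tnfaip6 by 1.43 (SE 0.169, adjusted p = 0.00153, edgeR) and Has1 by 0.77 on the log2 scale (SE 0.203, adjusted p = 0.0254, edgeR). Cemip rose by 1.57 (SE 0.337, adjusted p = 0.0122, edgeR). Without pECDC replicate 1, 2 or 3 Cemip narrowly missed the threshold, with log2 fold changes of 1.60, 1.54 and 1.54 (adjusted p = 0.0510, 0.0553 and 0.0568, edgeR). Without pECDC replicate 1 or 2 or SB431542-treated replicate 1, Has1 had log2 fold changes of -0.71, -0.72 and -0.60 (adjusted p = 0.0985, 0.0946 and 0.0611, edgeR). Without SB431542-treated replicate 2, 6 of the 7 passed, Has3 being the exception, but so did 9188 of 14345 tested genes.

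**Figure D3:**
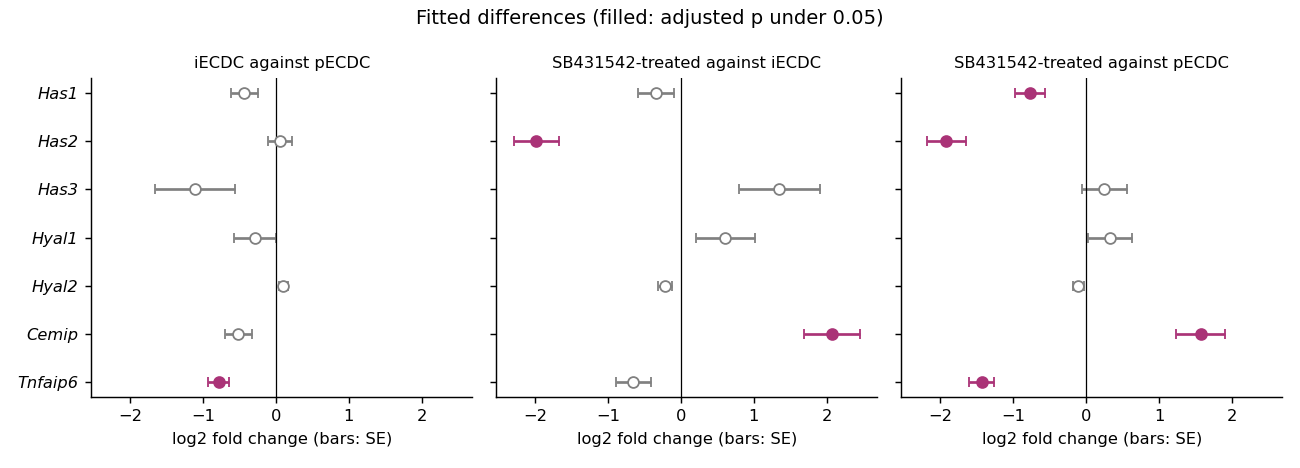
Log2 fold change (x axis, bars 1 SE) of the 7 genes (y axis) in the 3 comparisons, filled where the adjusted p of edgeR's quasi-likelihood test was under 0.05. Tnfaip6 alone is filled in iECDCs against pECDCs, and Has2 at -1.98 and Cemip at 2.07 are filled in SB431542-treated against iECDC libraries.

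Around these 7 genes, a list of 43 other hyaluronan genes was followed by role. Of these, 12 had at most 3 counts in every library, among them the testis hyaluronidase Spam1, the lymphatic receptor Lyve1, and Hapln1, a link protein. In iECDCs against pECDCs 26 were tested, and 1 rose and 8 fell, against 7.21% and 9.21% of all tested genes. In SB431542-treated against iECDC libraries 25 were tested, and 5 rose and 5 fell, against 16% and 14%. The median log2 fold change of the list was -0.18 and 0.11. In SB431542-treated against pECDC libraries 12 of 27 passed, 5 of them higher, against 17.9% and 17% of all tested genes higher and lower. Many of these calls depended on single libraries. Under every alternative with the gene in the fit, Gfpt1 kept its call in iECDCs against pECDCs, and Hk2, Cd44, Itih2 and Itih5 theirs in SB431542-treated against iECDC libraries. Without iECDC replicate 3, 13 of the list passed in the first comparison, as did 4467 of all 14095 tested genes. Without it and SB431542-treated replicate 2, 22 passed in the second, as did 8951 of 13867 tested genes.

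The enzymes that supply the UDP sugars were all tested, and 4 of the 10 fell and 1 rose in iECDCs, where 9.21% of all tested genes fell and 7.21% rose. Of 15 alternative settings, Gfpt1 passed in 15, Gfpt2 in 14, Uap1 in 13, Pgm3 in 9 and Ugdh in 8. Those that fell belong to the hexosamine pathway, which makes UDP-N-acetylglucosamine. Gfpt1, its first enzyme, had 16.9 ± 0.726 FPKM in pECDCs and 11.5 ± 0.191 in iECDCs (SD, n = 3 each), and fell by 0.57 on the log2 scale (SE 0.0604, adjusted p = 0.000376, edgeR). Gfpt2, Pgm3 and Uap1 fell by 0.47, 0.55 and 0.33 on the log2 scale. Ugdh, which makes UDP-glucuronic acid, rose by 0.27 (SE 0.0686, adjusted p = 0.0279, edgeR). In SB431542-treated against iECDC libraries Ugdh, Gfpt1, Uap1 and Hk2 fell, by 0.67, 0.32, 0.42 and 1.08 on the log2 scale, and Gpi1, a glycolytic enzyme, rose by 0.47. Of 16 alternative settings in this comparison, Hk2 passed in 16, Ugdh, Uap1 and Gpi1 in 11 each and Gfpt1 in 9. Ugdh FPKM was 40.0, 66.8 and 43.8 in SB431542-treated replicates 1, 2 and 3, and replicate 2 was the closest to the lowest iECDC library, at 74.8.

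Among the other degrading enzymes, Cemip2, a cell-surface relative of Cemip, fell by 0.29 in iECDCs (adjusted p = 0.0331, edgeR). This call was kept in only 6 of 15 alternative settings. Hexa and Gusb did not pass in either comparison.

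Of the receptors, Cd44, the main hyaluronan receptor, was lower in the treated group. Its FPKM was 69.8, 67.4 and 65.4 in pECDC, 67.7, 73.0 and 78.1 in iECDC and 16.6, 35.0 and 17.1 in SB431542-treated replicates 1, 2 and 3. The SB431542-treated libraries lay below all others, with replicate 2 the highest of them. Cd44 fell by 1.66 against iECDCs (SE 0.278, adjusted p = 0.00489, edgeR) and did not pass between iECDCs and pECDCs (log2 fold change 0.10, adjusted p = 0.379, edgeR). Tlr4, a receptor of innate immunity that can respond to hyaluronan fragments, rose by 0.92 in SB431542-treated libraries (SE 0.214, adjusted p = 0.0159, edgeR). Vcan, a large proteoglycan that binds hyaluronan, fell by 0.58 in iECDCs (SE 0.108, adjusted p = 0.00762, edgeR).

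The listed genes of the heavy-chain family were low, and Itih2 and Itih5 rose in SB431542-treated libraries. Itih1 and Ambp, listed with them, had at most 3 counts in every library. Transfer of heavy chains by Tnfaip6 was not measured. Itih2 FPKM was 2.71, 2.56 and 2.66 in pECDC, 1.26, 1.39 and 1.92 in iECDC and 11.3, 3.96 and 11.1 in SB431542-treated replicates 1, 2 and 3. Itih2 fell by 0.82 in iECDCs (SE 0.161, adjusted p = 0.00938, edgeR) and rose by 2.54 in SB431542-treated against iECDC libraries (SE 0.399, adjusted p = 0.00383, edgeR). Itih5 rose by 3.14 (SE 0.406, adjusted p = 0.00190, edgeR), from at most 14 counts in iECDCs to 69 to 138. Itih4 had no count in pECDCs, 3 to 5 in iECDCs and 303, 4 and 357 in SB431542-treated replicates 1, 2 and 3, and did not pass the filter on low counts, since replicate 2 was as low as the iECDCs. Ptx3, which helps cross-link hyaluronan with the heavy chains, had an FPKM of 46.7, 104 and 57.8 in SB431542-treated replicates 1, 2 and 3 and did not pass in either comparison.

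**Figure D4:**
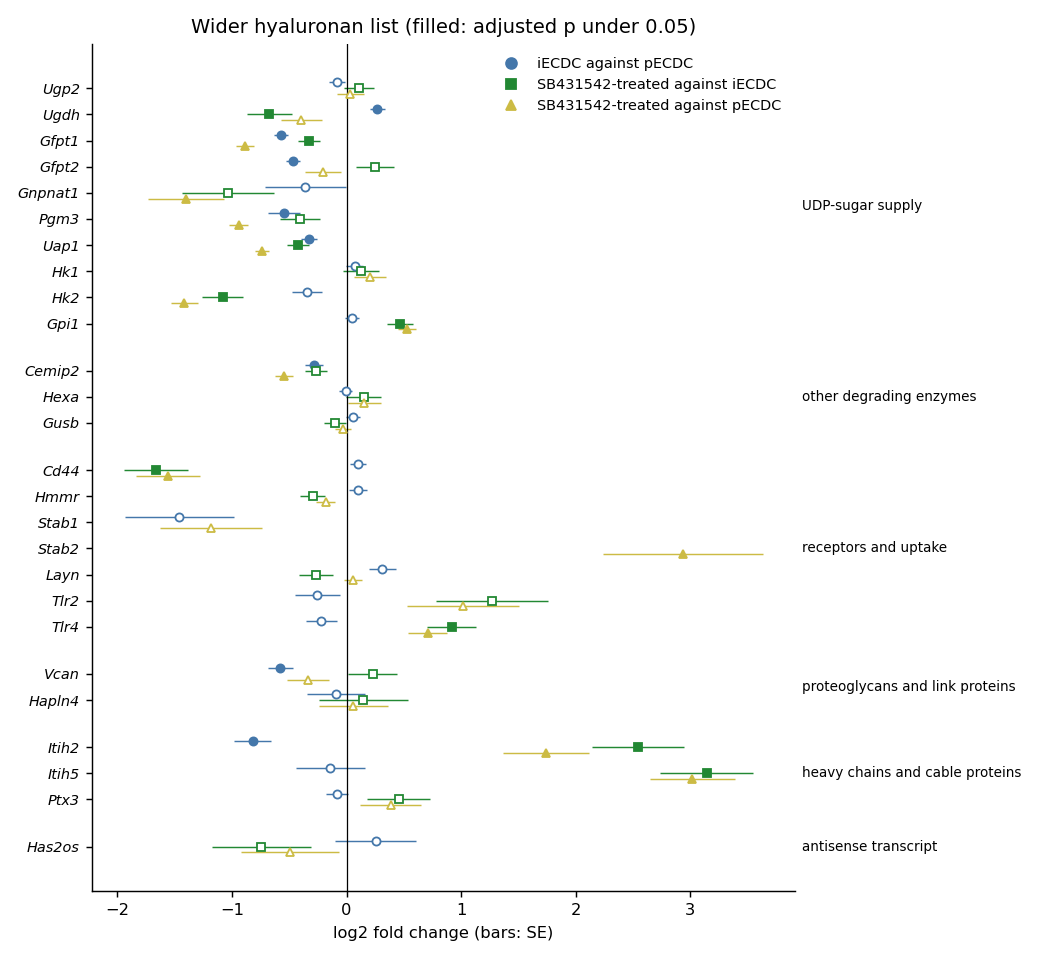
Log2 fold change (x axis, bars 1 SE) of tested genes of the wider list (y axis, grouped by role) in the 3 comparisons, filled where the adjusted p of edgeR's quasi-likelihood test was under 0.05. Itih5 at 3.14 and Cd44 at -1.66 mark the ends of the SB431542-treated against iECDC comparison.

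As a description over the 9 libraries, with libraries of 1 group as points that share their condition, the gene whose normalized log2 counts were most like those of Has2 among 11383 genes with a mean FPKM of at least 1 was Lamb1 (Pearson's r = 0.996), followed by Dnajb4 (0.993). For Cemip they were Wdr19 (0.998) and Hacd4 (0.994), and for Tnfaip6 Slc25a38 (0.994) and Armcx6 (0.989). For Hyal2 they were Adrm1 (0.993) and Trir (0.993), for Hyal1 Zfp729a (0.969), and for Has1 Llph-ps2 (0.958) and Coa6 (0.957). Has3, from few counts, was most like Tada1 (0.972) and Fbxo31 (0.952). Among the 7 genes, Cemip and Hyal2 were the most opposed (r = -0.944), and Has1 and Tnfaip6 the most alike (0.925). Has2 overlaps Has2os on the opposite strand over 4596 bases, and Has2os had at most 21 counts in a library.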

How the data were processed

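RNA was measured in 9 libraries of mouse cells, grouped by their labels. Per the file headers the authors deposited raw read counts for each gene, and FPKM values that equal the count divided by gene length and a constant of the library, except 1 count, of Pkm in pECDC replicate 3. The submitters' processing notes list TopHat2 2.0.9, Bowtie2 2.0.6 and the build mm9. The deposited coordinates were those of GENCODE M21 on GRCm38 for 53548 of the 54495 genes in both, including all 7 members. The counting program and its use of strand are not given in the sources used here. Columns of the authors' own comparisons and group means were not used. The methods speak of 2 biological replicates for each condition and the sequencing legends of n = 3, and all 3 libraries of a group were used. The labels and the methods also differ in library kit and sequencer.

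The test was edgeR 4.0.16 on these counts (R 4.3.3, TMM, filterByExpr with minimum count 10 and minimum total count 15, glmQLFTest, two-sided) between 2 groups at a time, with Benjamini-Hochberg adjustment over all genes that passed the filter and a threshold of 0.05. The SE is the log2 fold change divided by the square root of the F statistic. Alternatives were DESeq2 1.42.0, limma 3.58.1 on log2(FPKM + 1) or log2(FPKM + 0.1), other normalizations and filters, all 9 libraries in the fit, a replicate block, a log2 fold change of at least 1, and leaving out each library. Leaving out 2 libraries together was added after seeing the data. Tested on simulated counts, edgeR kept its false calls low. DESeq2 made more than its threshold allows, beyond a limit first set for both tools, in SB431542-treated against iECDC libraries. The counts were simulated for each gene independently, without libraries that stand apart as 2 do here. The simulation therefore cannot show how many calls in these data are false. The limit was then applied to edgeR alone, so that calls made by DESeq2 only are to be read with that in mind. Genes named are the 7 members, the wider list, the 2 genes most like each member, overlapping genes and label checks. A few named genes are left without values here. Members and lists were chosen with earlier results of these data known. Plots used matplotlib 3.10.9 in python 3.11.15.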

Additional observations from a re-analysis of the deposited data

How the results depend on the processing

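Of 320 alternative values of the members' log2 fold changes, 293 kept direction and side of the threshold, 18 newly passed, 6 no longer passed and 3 changed sign. Has2 and Hyal1 in iECDCs against pECDCs, neither called, changed sign when a library was left out, with ranges of -0.059 to 0.26 and -0.55 to 0.0028. Between iECDCs and pECDCs, 2258 genes passed, but 671 with all 9 libraries in the fit, 512 with a log2 fold change of at least 1, and 1036 to 4467 without 1 library, the highest without iECDC replicate 3. Of the members 1 passed, against 2 with DESeq2, 2 with no filter on low counts, 0 with a log2 fold change of at least 1, and 1 to 4 without 1 library. The second gene with DESeq2 or without the filter was Cemip (adjusted p = 0.0371 and 3.55e-07, against 0.0924 in edgeR with the filter). Without the filter edgeR's prior degrees of freedom rose from 5.03 to 148, so that each gene's own spread counted for little. Between SB431542-treated and iECDC libraries, 4061 genes passed, but 1434 with a log2 fold change of at least 1, 1707 to 7001 without 1 library, and 8951 without iECDC replicate 3 and SB431542-treated replicate 2. Of the members 2 passed, against 4 with all 9 libraries in the fit, 2 to 5 without 1 library and 7 without both. Between SB431542-treated and pECDC libraries, 4881 genes passed, but 1330 with a log2 fold change of at least 1, and 2453 to 9188 without 1 library, and 4 members, against 2 to 6. The wider list had 9, 10 and 12 calls in the 3 comparisons and 4 to 13, 4 to 17 and 8 to 23 without 1 library. The sources used here do not say whether equal replicate numbers pair the samples. Deviations of libraries with the same number correlated at -0.225 to 0.049, which shows no pairing but cannot exclude it. With the replicate block 1791, 3038 and 3886 genes passed and 1, 2 and 4 members. Has3, at 1 to 18 counts, is limited by depth.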
